A study of Mus musculus with 4 samples.

Results

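Bone morphogenetic proteins (BMPs) are secreted signals, and the 9 genes described here are 6 BMP ligand genes (Bmp2, Bmp3, Bmp4, Bmp5, Bmp7 and Bmp8b), 2 genes of secreted BMP antagonists (Grem1 and Nog) and 1 gene that BMP signalling switches on (Id1). They come from 19938 genes named by a probe set with 1 symbol, and were chosen by symbol, with their log2 intensities on these same 4 arrays already known, so their values are a description and no test was made on them. The samples were colon epithelial cells of C57BL/6 mice aged 6 to 8 weeks, released with EDTA and not described as sorted. All 4 groups, wild type included, had gone through the same model of colitis-associated cancer to day 12: the carcinogen azoxymethane was injected at 10 mg/kg, and 3.5% dextran sulfate sodium, which injures the colon lining, was later given for 5 days. The groups were Bmi1ΔIEC Mel18ΔIEC (DKO, both genes deleted in intestinal epithelial cells), Bmi1ΔIEC (Bmi1_KO), Mel18ΔIEC (Mel18_KO) and wild type (WT), with 1 array each. Bmi1 and Mel18 (gene symbol Pcgf2) encode related subunits of Polycomb repressive complex 1, which holds many developmental genes silent, and the layout asks what each deletion and both together do to transcripts. The Cre driver, the deleted exons and the number of mice behind each array are not stated in the labels.

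BMP ligands bind pairs of type I and type II receptors, which phosphorylate SMAD1, SMAD5 and SMAD9. These join SMAD4 and turn on target genes, among them the Id genes. In the colon, BMP activity is highest near the luminal surface, where it favours differentiation, and is held low at the crypt base by antagonists such as gremlin 1 and noggin from cells beneath the epithelium. Ligands come from both compartments: Bmp2 is made by surface epithelium and stroma, and Bmp4 and Bmp5 mainly by stroma.

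All values below are log2 of RMA intensities, and a level is comparable between arrays for 1 gene but not between genes. The array labelled DKO stood apart, with a correlation of 0.878 to 0.906 with each other array across 12526 genes, against 0.978 to 0.982 among the others. These 12526 genes had a log2 intensity of at least 6 on their highest array, the floor used throughout. No genotype has a replicate, so no difference has a replicate check; an error scale taken from contrasts among the 4 arrays was at most 0.407 for 1 array minus another in a typical gene. Bmi1 and Pcgf2 did not check the labels: Bmi1 read 7.64 on DKO, 7.43 on Bmi1_KO, 7.25 on WT and 6.999 on Mel18_KO, and Pcgf2 lay between 6.72 and 6.96, with probe sets that may also read RNA outside the deleted parts. Each array is therefore called by the genotype its label gives, and every direction rests on those labels. The common epithelial markers were measured in 15 of 15 cases above the floor, and Epcam lay between 11.99 and 12.38. The WT array carried seminal vesicle transcripts (Svs4 at 12.17, against 4.16 to 5.73 elsewhere), so counts are given both against WT and against the mean of the single deletions.

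Across the family the pattern was one of higher ligand transcripts on the array labelled DKO. Relative to WT, 4 genes on DKO (Bmp2, Bmp3, Bmp5 and Bmp8b) were 2-fold or more higher and 0 were 2-fold or more lower; among all genes analysed, 7.33% were that much higher and 8.19% that much lower. Bmp4, Bmp7 and Grem1 were 1.57-fold to 1.91-fold higher, so 7 of the 9 genes lay above WT by 1.5-fold or more, as did 14.3% of all genes. Nog read under the floor on every array and Id1 was slightly lower. Against the mean of Bmi1_KO and Mel18_KO the same 4 genes were at least 2-fold higher, where 7.33% of all genes were; both comparisons contain the DKO array. In that comparison Bmp8b differed by 1.22, Bmp5 by 1.12, Bmp4 by 0.92, Grem1 by 0.91 and Bmp7 by 0.55. Against WT, 0 of the 8 genes past the floor were 2-fold apart on Bmi1_KO and 0 on Mel18_KO. Of all genes 0.91% and 0.958% were, so these counts are near the background.

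**Figure D1:**
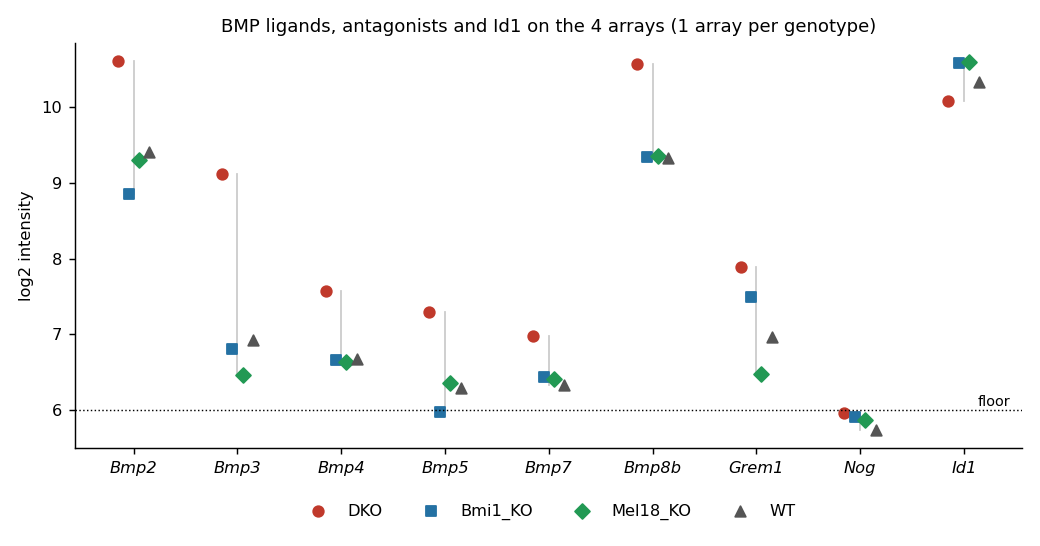
Log2 intensity (vertical axis) of the 9 genes on the 4 arrays, 1 point per array and a dotted line at the floor of 6. For the 6 ligand genes the DKO point lies above the other 3, by 2.19 for Bmp3 over the next array; Grem1 is spread over 1.42, Nog lies under the floor, and Id1 is lowest on DKO.

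Bmp3 showed the widest difference. It encodes an unusual family member known to oppose BMP signalling in bone rather than to activate it. It read 6.92 on WT, 6.46 on Mel18_KO, 6.81 on Bmi1_KO and 9.12 on DKO. DKO was thus 4.57-fold above WT (difference 2.19) and 2.48 above the mean of the single deletions, while the other 3 arrays spanned 0.46. The levels on those 3 arrays lay not far above the floor of 6. The genes whose pattern over the 4 arrays was most like that of Bmp3 were Ccr2, a chemokine receptor of monocytes, Treml4, a myeloid receptor, and Gbp8, an interferon-induced GTPase, at Euclidean distances of 0.09, 0.13 and 0.21 between centred log2 profiles, out of 12056 genes compared. With 4 arrays, of which 1 stands apart, such distances describe shape alone.

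Bmp2, which encodes a ligand of the upper crypt and surface, came second among the ligands in its difference from the single deletions. It read 9.40 on WT, 9.31 on Mel18_KO, 8.85 on Bmi1_KO and 10.61 on DKO. DKO was 2.30-fold above WT (1.20) and 1.53 above the mean of the single deletions. Bmi1_KO was the lowest array, 0.55 below WT, and this gap was larger than that of the other 5 BMP ligand genes on either single deletion. Its nearest patterns were those of Igsf23 (distance 0.07), Trim15 (0.09) and Chgb (0.14), the last a granule protein of enteroendocrine cells.

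Bmp8b, known for roles in germ cells and brown fat, separated DKO from 3 nearly identical arrays. It read 9.33 on WT, 9.36 on Mel18_KO, 9.34 on Bmi1_KO and 10.57 on DKO, a spread of 0.03 among the first 3. DKO was 2.36-fold above WT (1.24). Bmp8a, a close paralogue on the same chromosome with 5 coding genes between them, read 7.10 on WT, 7.11 on Mel18_KO, 7.02 on Bmi1_KO and 7.73 on DKO, a difference of 0.63 from WT. Probes of such similar genes may share signal, which could not be examined in summarised values.

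Bmp4, Bmp5 and Bmp7, ligands that activate BMP receptors, differed by less. Bmp4 read 6.67 on WT, 6.63 on Mel18_KO, 6.66 on Bmi1_KO and 7.57 on DKO, so DKO was 0.89 above WT while the other arrays lay within 0.04. Bmp5 read 6.29, 6.36, 5.97 and 7.29 in the same order. Its difference from WT of 1.00 sits on the 2-fold line and was 0.77 on the scale of log2(intensity + 32), which shrinks changes of dim genes. Bmp7 read 6.33, 6.41, 6.44 and 6.98, and its 0.65 above WT was the smallest of the 6 ligands. For all 3 genes DKO was the highest array, but on the other arrays the levels lay close to the floor.

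The 250 bases before the start were in the promoter table for 4 of the 9 genes. They are shown because these 4 were the ones available. Their CG content is given as the feature by which Polycomb targets are often recognised in mammals, and control of these genes by Polycomb was not tested. The sequences are RefSeq's on build GRCm38.p6, 5′ to 3′ on the gene's strand, at chr14:46390670-46390919 (minus strand) for Bmp4, chr9:75775115-75775364 (plus) for Bmp5, chr4:123104911-123105160 (plus) for Bmp8b and chr2:113758649-113758898 (minus) for Grem1. Capitals mark GGGCGG on either strand, a GC box, and GGCGCC, a GC-rich element that SMAD proteins can bind.
Bmp4: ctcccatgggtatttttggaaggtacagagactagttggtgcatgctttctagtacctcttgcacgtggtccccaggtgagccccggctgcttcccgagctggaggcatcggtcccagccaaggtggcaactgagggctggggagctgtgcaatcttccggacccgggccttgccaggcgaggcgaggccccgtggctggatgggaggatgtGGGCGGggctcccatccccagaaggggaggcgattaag
Bmp5: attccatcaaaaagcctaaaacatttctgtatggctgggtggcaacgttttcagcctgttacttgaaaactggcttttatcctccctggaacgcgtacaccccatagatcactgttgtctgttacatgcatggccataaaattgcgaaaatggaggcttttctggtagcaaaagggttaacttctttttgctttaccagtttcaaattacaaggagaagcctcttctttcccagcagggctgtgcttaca
Bmp8b: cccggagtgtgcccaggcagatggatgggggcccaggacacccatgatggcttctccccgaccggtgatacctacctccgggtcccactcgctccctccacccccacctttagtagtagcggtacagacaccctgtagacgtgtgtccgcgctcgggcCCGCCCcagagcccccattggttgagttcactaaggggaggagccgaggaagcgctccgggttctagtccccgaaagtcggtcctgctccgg
Grem1: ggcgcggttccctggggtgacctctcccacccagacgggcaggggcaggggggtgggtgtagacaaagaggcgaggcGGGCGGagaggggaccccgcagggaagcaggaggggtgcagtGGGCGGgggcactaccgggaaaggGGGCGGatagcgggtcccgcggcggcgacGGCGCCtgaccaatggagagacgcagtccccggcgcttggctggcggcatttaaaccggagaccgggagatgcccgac
Grem1 had 24 CG pairs, Bmp8b 17, Bmp4 11 and Bmp5 4, against a median of 6 over 32851 promoters of this length. GGGCGG was found 3 times before Grem1, 1 time before Bmp8b and Bmp4 each and 0 times before Bmp5, and 32.7% of all promoters held it. GGCGCC was found 1 time, before Grem1, and 9.59% of all promoters held it. TGANTCA, the AP-1 element, was searched on both strands and found in 0 of the 4, against 6.75% of all promoters. Grem1, Bmp8b and Bmp4 lie above the median in CG pairs and Bmp5 lies below it. In that order their differences between DKO and WT were 0.93, 1.24, 0.89 and 1.00, and a relation to CG pairs was not tested.

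The 2 antagonist genes read differently from each other. Grem1, which encodes a secreted protein that captures BMP2 and BMP4, was the only gene of the 9 with a 2-fold difference between the single deletions. It read 7.89 on DKO, 7.49 on Bmi1_KO, 6.96 on WT and 6.47 on Mel18_KO, 4 levels in steps of 0.40 to 0.54, so that neighbouring arrays differed by about the error scale. Bmi1_KO was 1.02 above Mel18_KO, and 1.53% of all genes were 2-fold or more apart in that direction. Its nearest patterns were those of Ier3 (0.11), an early response gene, Alox5 (0.15), a leukotriene enzyme of leukocytes, and Fscn1 (0.16), an actin-bundling protein. Nog, which encodes noggin, read 5.74 on WT, 5.86 on Mel18_KO, 5.91 on Bmi1_KO and 5.96 on DKO. All 4 values are under the floor, so its differences are not interpretable at this signal.

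Id1, an inhibitor of basic helix-loop-helix factors and a standard readout of BMP signalling, did not follow the ligands. It read 10.34 on WT, 10.59 on Mel18_KO, 10.58 on Bmi1_KO and 10.08 on DKO. It was the only gene of the 9 that was lowest on DKO, 0.25 below WT and 0.50 below the mean of the single deletions. The first of these gaps is smaller than the error scale and the second is 1.42-fold. DKO was the highest array for the other 8 genes, 7 of them past the floor; it was the highest for 35.3% of all genes analysed.

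The 2 by 2 layout gives each deletion in 2 settings, with and without the other, in pairs of arrays that share none. Bmi1 deletion came with a Bmp3 difference of -0.11 when Mel18 was intact (Bmi1_KO minus WT) and 2.66 when it was deleted (DKO minus Mel18_KO). Mel18 deletion came with -0.46 and 2.31. For Bmp2 the values were -0.55 and 1.30 for Bmi1 deletion and -0.10 and 1.76 for Mel18 deletion. Bmp8b gave 0.01 and 1.21, then 0.03 and 1.23. In each of these 3 genes the higher level was therefore on the DKO array and on neither single deletion. Grem1 differed from them in that Bmi1 deletion came with a higher level in both settings, 0.54 and 1.42, whereas Mel18 deletion gave -0.49 and 0.40. The departure from additivity, in which WT is added to DKO and both single deletions are taken off, was 2.77 for Bmp3, 1.86 for Bmp2, 1.25 for Bmp5, 1.20 for Bmp8b, 0.94 for Bmp4, 0.89 for Grem1, 0.46 for Bmp7 and -0.75 for Id1. It was at least 2-fold upwards for 4 genes and for 8.19% of all genes, with an error scale of 0.576.

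**Figure D2:**
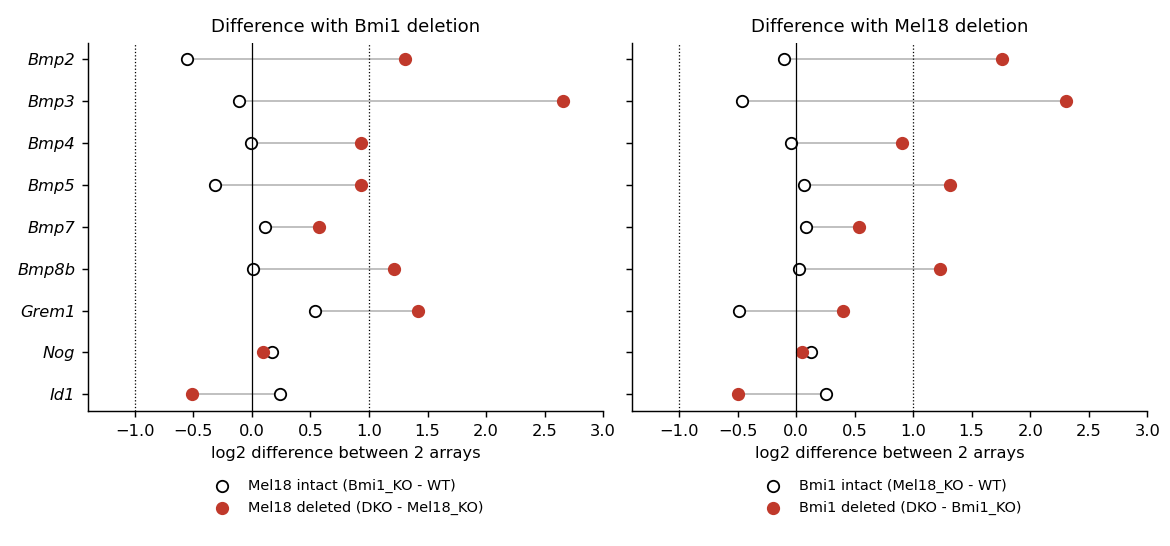
Log2 difference (horizontal axis) with Bmi1 deletion (left) and Mel18 deletion (right) for the 9 genes; open circles are pairs of arrays with the other gene intact, filled circles pairs with it deleted, and dotted lines mark 2-fold. Open circles lie between -0.55 and 0.54, and filled circles reach 2.66 for Bmp3.

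The rest of the pathway, together with related genes such as the activin subunit gene Inhba, was read from a list of 60 further genes by role. Of these, 57 were measured and 40 passed the floor. On DKO 6 of these 40 exceeded WT by 2-fold or more and 0 lay as far below it, against 7.33% and 8.19% of all genes. Their median difference was 0.30, against a median of -0.05 over all genes analysed. Against the mean of the single deletions 4 were higher and 0 lower (median 0.22), where 7.33% of all genes were higher, so this count is near the background. With 1 deletion alone, 1 gene was 2-fold higher on Bmi1_KO (median 0.04) and 1 was 2-fold lower on Mel18_KO (median 0.02), against 0.91% and 0.958% of all genes in either direction.

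Among other ligands of the superfamily, Inhba, which encodes the subunit of activin A, read 10.21 on DKO, 7.97 on Bmi1_KO, 7.48 on WT and 6.43 on Mel18_KO. It was 2.73 above WT on DKO and 1.05 below WT on Mel18_KO, the 1 pathway gene 2-fold lower there. Gdf7 differed by 0.02 between DKO and WT. Bmp6 was under the floor on all arrays.

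Of 11 receptor and co-receptor genes past the floor, 1 was at least 2-fold higher on DKO than on WT and 0 lower (median 0.30). Of all genes 7.33% were that much higher and 8.19% that much lower, so these counts are near the background. Against the mean of the single deletions 0 were 2-fold apart (median 0.25). The type I receptor gene Bmpr1a read 9.65 on DKO and 9.64 on WT, and the type II receptor gene Bmpr2 read 10.31 and 9.58, with 10.05 on Mel18_KO. The one co-receptor past 2-fold was Eng (endoglin), at 7.69 on DKO and 6.68 on WT (0.96 above the single deletions), which also stands on the endothelial marker list used here.

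Of 9 secreted modulators past the floor, 2 were at least 2-fold higher on DKO than on WT, and 1 of them, Fstl1, against the mean of the single deletions. In each comparison 7.33% of all genes were that much higher. Fstl1, which encodes a secreted glycoprotein of mesenchymal cells, read 7.78 on DKO, 6.72 on Bmi1_KO, 6.28 on WT and 5.62 on Mel18_KO, the order seen for Grem1 and Inhba. Nbl1, which encodes the antagonist DAN, read 7.62 on DKO and between 6.51 and 6.77 elsewhere. Twsg1, a modulator of ligand binding, was 0.10 lower on DKO than on WT.

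Inside the cell, the SMAD genes themselves were close to level, with Smad1, Smad4 and Smad5 at 0.25, 0.20 and -0.25 on DKO against WT. Skil, which encodes the SMAD co-repressor SnoN, read 8.83 on WT, 8.94 on Mel18_KO, 8.72 on Bmi1_KO and 10.25 on DKO and was 1.42 above WT. The inhibitory Smad6 and Smad7 differed by -0.09 and 0.51, and the decoy receptor gene Bambi by -0.50.

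The other 3 Id genes all read higher on DKO than on WT, unlike Id1. Id2 read 10.79 on DKO, 10.17 on Bmi1_KO, 8.85 on WT and 8.40 on Mel18_KO, so it was 1.94 above WT on DKO and 1.31 above WT on Bmi1_KO. Id3 read 8.23, 8.19, 7.61 and 8.58 on DKO, Bmi1_KO, WT and Mel18_KO, a difference of 0.62 between DKO and WT, but its highest array was Mel18_KO and DKO lay 0.15 below the mean of the single deletions. Id4 was 0.34 above WT on DKO.

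**Figure D3:**
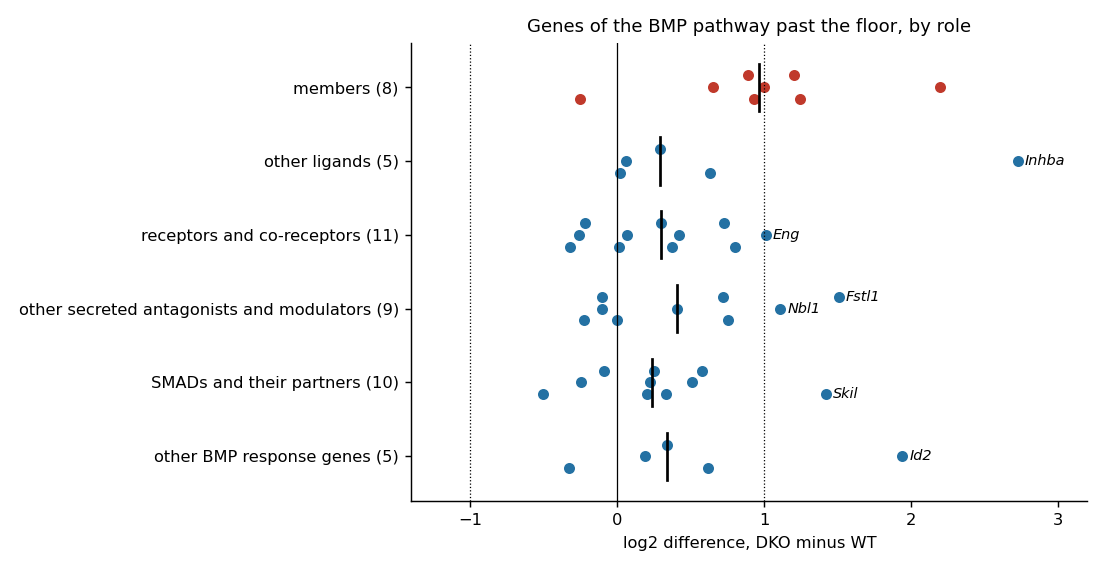
Log2 difference of DKO from WT (horizontal axis) for genes past the floor, by role, with the number of genes in brackets; each point is 1 gene, black bars are medians and dotted lines mark 2-fold. Inhba (2.73), Id2 (1.94), Fstl1 (1.51), Skil (1.42), Nbl1 (1.11) and Eng (1.01) lie past 2-fold and no gene lies past it on the lower side.

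Markers of other cell types differed between the arrays alongside these genes. In bulk RNA, more cells of a type and more RNA per cell cannot be told apart. In each of the 2 comparisons used below, DKO against WT and against the mean of the single deletions, 7.33% of all genes were at least 2-fold higher. Fibroblast markers were at least 2-fold higher on DKO than on WT in 4 of 14 cases past the floor (median 0.76), and in 4 against the mean of the single deletions (median 0.56). DKO was the highest array for 13 of the 14, the exception being Fbln1, a matrix protein gene 0.71 below WT on DKO. Their summed intensity was 9604 on DKO, 5840 on Bmi1_KO, 3902 on WT and 2964 on Mel18_KO. Dcn, a matrix proteoglycan, read 10.46, 9.88, 8.78 and 7.79 in that order, and Pdgfra read 7.81 on DKO and between 7.03 and 7.07 elsewhere. The order DKO, Bmi1_KO, WT, Mel18_KO was seen for Grem1, for none of the BMP ligand genes described here, and for pathway genes such as Inhba, Fstl1 and Id2. It was that of 5 of the 14 markers, while Mel18_KO lay above WT for 7, and its share among all genes was not counted. The sum takes this order from Vim and Dcn: without these the sums were 3762, 2440, 2111 and 2103, nearly equal on WT and Mel18_KO. Pdgfra, like Bmp4, was high on DKO alone. Markers of the subepithelial telocytes, a stromal source of BMPs, had a median of 0.61 against WT and 0.72 against the single deletions, although Foxl1, their defining factor, was under the floor on all arrays (5.14 to 5.30). Markers of smooth muscle, another known source of gremlin 1, had a median of 0.08 against WT and 0.53 against the single deletions. On Bmi1_KO 8 of 8 lay below WT (median -0.36) and on Mel18_KO 7 of 8 (median -0.50). The medians of all genes were -0.02 and 0.005. The WT array carried seminal vesicle transcripts, and the part of that RNA in the muscle markers was not tested. Acta2 was 0.77 above WT on DKO, whereas Des and Smtn were at -0.47 and -0.81. Endothelial markers were 2-fold higher than on WT in 5 of 9 cases and than on the single deletions in 3, with Pecam1 at 7.93 on DKO and 6.19 on WT.

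Among the lists of other cell types in the colon, leukocyte markers had the largest medians: 10 of 10 neutrophil and 8 of 10 mononuclear phagocyte markers were at least 2-fold higher on DKO than on WT, with medians of 2.21 and 2.04. The counts were the same against the mean of the single deletions, with medians of 2.43 and 2.19. In each comparison 7.33% of all genes were that much higher. Summed neutrophil intensity was 28369 on DKO, 15504 on Bmi1_KO, 6651 on WT and 2031 on Mel18_KO, the order of Grem1, which 10 of the 10 markers had. The share of all genes with this order was not counted. For mononuclear phagocytes the sums were 13431, 4973, 3867 and 2642, and 7 of the 10 markers had the same order. Adgre1, a macrophage marker with another order, read 8.22 on DKO and between 5.58 and 5.99 elsewhere. Common epithelial markers were level, with sums between 62352 and 66861, although the chloride transporter gene Slc26a3 was 1.60 below WT on DKO. The part of these cell types in the BMP gene differences was not tested. Of the 11 seminal vesicle markers, 10 exceeded DKO by 2-fold or more on WT, as did 8.19% of all genes. The exception was Spink1, which read over 10 on every array. WT was the highest array for 0 of the 9 BMP genes, but the part of seminal vesicle RNA in their WT values was not tested.

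**Figure D4:**
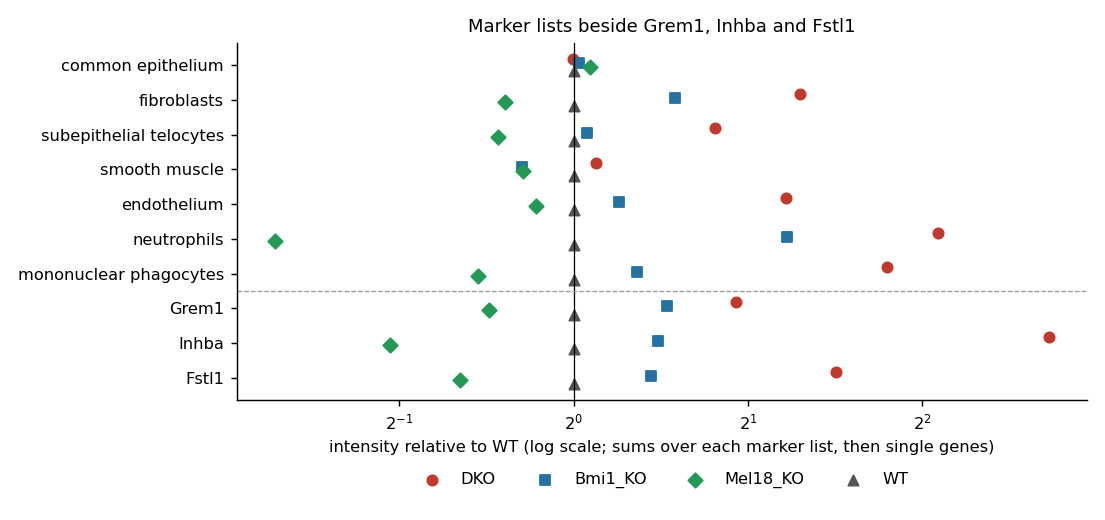
Intensity relative to the WT array (horizontal axis, log scale) for sums over 7 marker lists and, under the dashed line, for Grem1, Inhba and Fstl1; each point is 1 array. The sums of fibroblast, telocyte, endothelial, neutrophil and phagocyte markers and the 3 genes share the order DKO, Bmi1_KO, WT, Mel18_KO (5 of 14, 1 of 7, 7 of 9, 10 of 10 and 7 of 10 single markers have it). The 3 genes were drawn with this order known, and Grem1 is the only one of the 9 BMP genes that has it. The share of all genes with this order was not counted. The epithelial sums stay close to 1.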

How the data were processed

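Expression was measured on 4 Affymetrix Mouse Gene 1.0 ST arrays, 1 per genotype, from 200 ng of total RNA each. The authors deposited linear intensities, 1 per probe set and array. The submitters' processing notes name RMA and Affymetrix Expression Console, without versions. RMA equalises the distribution of values between arrays, so a shift shared by most genes would be removed. Array precision is limited by their number. Of 35556 probe sets, 21789 had 1 symbol in the platform annotation, 1621 had several and were not named, and 12146 were not listed. The brightest probe set per gene gave 19938 genes, and each of the 9 genes described had 1 probe set. Log2 was taken before any difference. Genes with log2 of at least 6 on the highest array were analysed (12526), and calls were counted at 2-fold, with no test. The error scale was the smallest scaled median absolute deviation of the 3 orthogonal contrasts (0.288 for 1 array). Each contrast includes the DKO array and true differences enter the scale, so it is an upper bound. Pathway and marker lists were matched by symbol or synonym, and 3 listed pathway genes are not reported here.

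Genes named were the 9 genes, leading markers, and pathway genes at least 2-fold apart on DKO or among the 3 with the highest means of their role. Others were picked after their values were seen: pathway genes of interest to a role (Smad1, Smad5, Smad6, Smad7, Bambi and Bmp6) and the markers Fbln1, Des, Smtn, Slc26a3 and Adgre1. The fibroblast sums without Vim and Dcn were also added after the values were seen. The members and lists were chosen with earlier results of these data known, and the comparison of Bmi1_KO with Mel18_KO was added after seeing the values. Alternatives were no floor, a floor of 8, median centring, cyclic loess, log2(intensity + 32), the mean of probe sets, and 1.5-fold and 3-fold. The calculation of differences was checked on simulated data with little noise, which does not bear on their precision in these arrays. Tools were Python 3.11.15, numpy 2.4.6, pandas 2.3.3, R 4.3.3 and limma 3.58.1.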

Additional observations from a re-analysis of the deposited data

Results flagged for a closer look

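For 2 genes a deletion's difference had opposite signs with and without the other deletion, both beyond the error scale of 0.407. The share of all genes that meet this rule was not counted, so the flag does not mark these 2 as unusual. These contrasts rest on single arrays and the difference was not tested. Bmp2 was 0.55 lower with Bmi1 deletion when Mel18 was intact (a log2 difference of -0.55) and 1.30 higher when it was deleted, a departure from additivity of 1.86. Bmp3 gave -0.46 with Mel18 deletion when Bmi1 was intact and 2.31 when it was deleted, a departure of 2.77.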

How the results depend on the processing

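No paired analysis was possible because each genotype has 1 array. All 216 recomputed differences of the 9 genes (under median centring, cyclic loess and log2(intensity + 32)) stayed within the error scale of the value reported, and 0 with a 2-fold call changed sign. Median centring moves every gene of a comparison by the same amount, less than the error scale, so its 72 values were bound to stay. The mean of probe sets changes nothing for these genes, which have 1 each. The count of 4 genes past 2-fold on DKO against WT became 3 under a floor of 8, median centring, cyclic loess and log2(intensity + 32), as Bmp5 lies on the line or under that floor. Against the mean of the single deletions it became 3 under a floor of 8 and log2(intensity + 32). For additivity it became 3 under the same settings and 5 under cyclic loess. At 1.5-fold the count was 7 against WT, 7 for additivity (6 above and 1, Id1, below) and 12 for pathway genes; at 3-fold these were 1, 2 and 2, and 1 against the mean of the single deletions. With a floor of 8, 3 pathway genes were counted in place of 6, with median centring 5 and with log2(intensity + 32) 4. Without the WT array 4 of the 9 genes and 4 pathway genes were 2-fold higher, the latter a comparison chosen after seeing the data. Signal over background limits Nog, Bmp4, Bmp5 and Bmp7, and also Bmp3 and Grem1 on their lower arrays. With log2(intensity + 32), Bmp3 was 1.94 above WT on DKO.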
